A study of Mus musculus with 18 samples.

Results

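Mast cell genes were followed across RNA-seq libraries of mouse peritoneal macrophages. The set held 8 genes that define mast cells, namely the proteases Cpa3, Mcpt4, Cma1 and Tpsb2, the surface receptors Kit, Fcer1a and Ms4a2, and the histamine-forming enzyme Hdc, among 13598 genes with a value in the series. They were chosen by name as canonical mast cell genes, with earlier results of these data in view, so their levels and the differences between groups are given as a description without a test. Each gene value was the larger of the summed FPKM (fragments per kilobase of transcript, scaled to the size of the library) of its first-exon rows and of its last-exon rows in a library.

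The 18 libraries formed 6 groups of 3. TLR4-WT mice were compared with TLR4-K730R and TLR4-K810R mice, which carry a lysine-to-arginine point mutation in the cytoplasmic TIR domain of Toll-like receptor 4, the LPS receptor, introduced by CRISPR/Cas9 on the C57BL/6 background. The cells of each genotype were left without LPS (control) or given LPS at 100 ng/ml for 6 h. All groups shared the harvest by lavage after thioglycolate had been injected into the peritoneal cavity, so the material was an elicited cell population with no reported sort for macrophages, and every mutant cell type, not the macrophages alone, carried the mutation. The ages and sexes of the mice, and whether the 3 libraries of a group came from separate mice, were not given in the sources used here, so that p-values below measure only the spread between libraries, which may be technical. In bulk libraries of this kind, fewer cells of a type and less RNA per cell cannot be told apart.

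Mast cells are tissue-resident cells of the hematopoietic lineage that are common in the peritoneal cavity and in connective tissue. They store histamine, proteoglycans and proteases in granules and release them when antigen cross-links IgE bound to the high-affinity receptor FcεRI, while stem cell factor acting on the receptor tyrosine kinase KIT maintains the cells. The connective-tissue type that populates the peritoneum is known for the carboxypeptidase CPA3, the chymases encoded by Mcpt4 and Cma1, and tryptases such as that encoded by Tpsb2.

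The promoters of 3 members are shown because they contrast a pair of granule protease genes with Hdc, the member whose level moved most with LPS. Each run is the 250 bases before the RefSeq transcript start, 5′ to 3′ on the strand of the gene, in GRCm38.p6. The Cpa3 run is chr3:20242182-20242431, the Mcpt4 run is chr14:56062311-56062560 and the Hdc run is chr2:126618679-126618928, all on the minus strand. Capitals mark matches on either strand to any of the motifs searched. For factors of the family to which Gata1 and Gata2 belong these were AGATAA and the related TGATAA. For E-boxes, which MITF binds, they were CATGTG and its palindromic relative CACGTG. The AP-1 motif TGACTCA, the cyclic AMP response element TGACGTCA and the core promoter motif TATAAA were searched as well.
Cpa3: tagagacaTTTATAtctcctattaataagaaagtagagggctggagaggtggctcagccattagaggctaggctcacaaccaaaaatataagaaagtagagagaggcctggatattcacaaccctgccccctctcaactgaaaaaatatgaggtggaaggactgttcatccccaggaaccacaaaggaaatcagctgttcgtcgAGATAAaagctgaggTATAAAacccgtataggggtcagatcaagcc
Mcpt4: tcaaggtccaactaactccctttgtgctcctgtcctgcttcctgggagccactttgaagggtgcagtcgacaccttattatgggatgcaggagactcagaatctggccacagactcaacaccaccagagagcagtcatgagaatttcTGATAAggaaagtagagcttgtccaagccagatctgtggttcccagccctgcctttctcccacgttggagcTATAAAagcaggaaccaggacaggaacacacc
Hdc: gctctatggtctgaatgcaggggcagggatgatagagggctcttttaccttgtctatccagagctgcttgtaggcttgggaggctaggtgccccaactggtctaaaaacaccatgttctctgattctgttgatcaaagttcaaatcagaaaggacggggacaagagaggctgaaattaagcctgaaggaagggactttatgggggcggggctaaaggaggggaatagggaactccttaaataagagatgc

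The Cpa3 run held AGATAA 46 bases and TATAAA 31 bases before the start, and a TATAAA on the opposite strand 242 bases before it. In the Mcpt4 run, TGATAA lay 103 bases and TATAAA 32 bases before the start. None of these letters occurred in the Hdc run, nor in those of Cma1 and Kit. Of the IgE receptor genes, Ms4a2 had 3 matches to AGATAA (11 bases before the start on the same strand, 37 and 224 bases before it on the opposite strand), and Fcer1a had AGATAA 92 and CATGTG 208 bases before the start on the opposite strand and TATAAA 125 bases before it. These letters are common. Among 32851 promoter runs of this length, AGATAA occurred in 9.99%, TGATAA in 7.94%, CATGTG in 12.3%, CACGTG in 6.02%, TGACTCA in 4.46%, TGACGTCA in 1.55% and TATAAA in 12.4%. The table held 7 of the 8 members, and the outermost first exon listed in the libraries began exactly at the RefSeq start for Cpa3 and Hdc.

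Mast cell transcripts were scarce in every library. Of the 8 genes, 6 were listed above 0 in at least 1 library, and Fcer1a and Ms4a2 were listed at 0 in all 18. Only 4 genes (Cpa3, Cma1, Tpsb2 and Hdc) reached 1 FPKM in at least 3 libraries, the filter for the comparisons across all genes. Leaving Hdc aside, no member exceeded 2.27 FPKM in any library, while the median tested gene lay between 5.11 and 7.93 FPKM. A value of 0 is a listing and not proof of absence, because Itgam, which encodes an integrin that peritoneal macrophages carry, was also listed at 0 in all 18 libraries. Since the deposited values are not counts, depth is unknown and a detection limit cannot be set.

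The label of the cells was met by their leading markers. Of 11 macrophage markers 9 were listed in all 18 libraries, with Adgre1 (F4/80) at 148 to 271 FPKM and Csf1r, the M-CSF receptor, at 277 to 538 FPKM. Itgam was listed in none and Cd14 in 1, at 463 FPKM, so its listings of 0 elsewhere are no measure of a low level. The list summed to 12465.4 to 15807.8 FPKM in control libraries and 7873.4 to 10376.7 FPKM with LPS, mostly from the lysozyme gene Lyz2. Of 4 basophil markers Mcpt8, Prss34 and Il4 were listed at 0 throughout, and Cd200r3, which mast cells share, was listed in 10 libraries, at up to 0.0975 FPKM in control, and with LPS at 0.305 to 0.901 FPKM for TLR4-WT, 0.0832 to 2.0 for TLR4-K730R and 0 for TLR4-K810R. Of 7 eosinophil markers, Prg2, Epx and Il5ra were listed at 0, while Ear2 (18 libraries, 0.721 to 2.69 FPKM), Siglecf (16 libraries, up to 2.73 FPKM) and Ccr3 (11 libraries, up to 0.804 FPKM) were listed. The list summed to 2.91 to 4.96 FPKM for TLR4-WT control, 2.61 to 5.48 for TLR4-K730R control and 2.7 to 4.75 for TLR4-K810R control. With LPS it was lower in every genotype, at 1.78 to 2.72, 1.54 to 2.47 and 0.731 to 1.72 FPKM in the same order. LPS-treated TLR4-K810R thus lay narrowly below TLR4-WT. Libraries also differed in transcripts of tissue outside the cavity fluid. A 12-gene list of intestinal epithelium summed to 0.118 to 0.67 FPKM for TLR4-WT control, 46.9 to 74.8 for TLR4-K730R control and 57.8 to 123 for TLR4-K810R control. With LPS it summed to 0.0928 to 16.3 FPKM for TLR4-WT, 53.6 to 61.6 for TLR4-K730R and 0.127 to 21.6 for TLR4-K810R. Mesothelium and fibroblast markers (10 of 11 listed, Pdgfra at 0) summed to 34.9 to 53.2 FPKM for TLR4-WT control, 67.0 to 78.7 for TLR4-K730R control and 130 to 310 for TLR4-K810R control. With LPS these summed to 45.4 to 151 FPKM for TLR4-WT, 50.0 to 51.5 for TLR4-K730R and 108 to 128 for TLR4-K810R. Both lymphoid lists lay lower in TLR4-K730R control than in TLR4-WT control, without overlap but by a narrow gap. The T, NK and innate lymphoid cell list, mostly Il7r, summed to 68.8 to 94.5 FPKM in TLR4-WT control, 45.9 to 68.6 for TLR4-K730R control and 67.2 to 93.7 for TLR4-K810R control, and the B cell list (Pax5 and Ighm at 0) to 2.3 to 3.66, 1.46 to 2.28 and 1.65 to 2.85 FPKM in the same order. With LPS the former summed to 31.9 to 67.1, 20.8 to 35.5 and 29.4 to 39.5 FPKM, below control in every genotype. The B cell list then summed to 0.866 to 2.73, 0.528 to 1.52 and 0 to 0.919 FPKM. With LPS each mutant overlapped TLR4-WT in both lists. The part of these tissues and cells in the genotype differences of the mast cell genes described below was not tested.

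**Figure D1:**
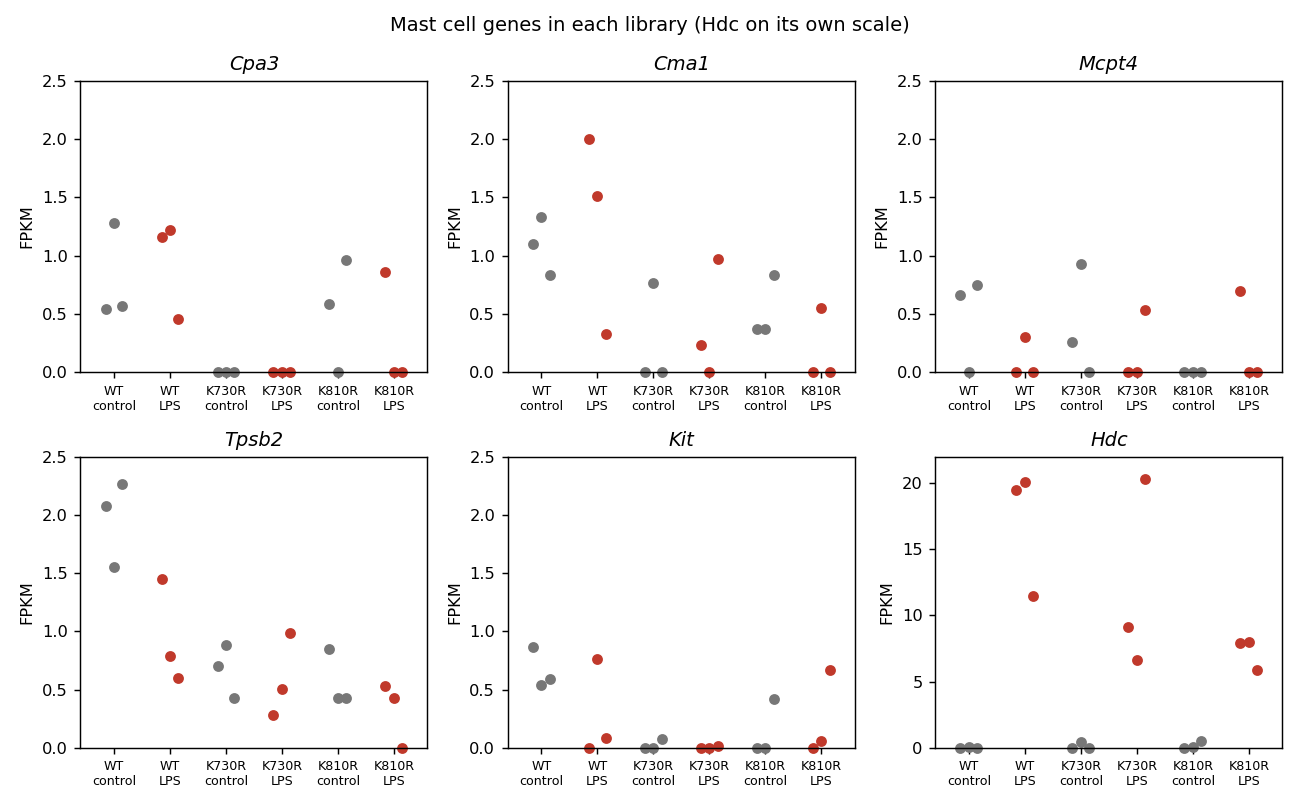
FPKM of the 6 listed mast cell genes in each of the 18 libraries (vertical axis, FPKM, linear, with its own scale for Hdc), by genotype and treatment (horizontal axis). Each point is 1 library, gray for control and red for LPS. Tpsb2 lay at 1.55 to 2.27 FPKM in the TLR4-WT control libraries and at 0.423 to 0.881 FPKM in the control libraries of both mutants, and Hdc lay at 5.91 FPKM or more in every LPS-treated library.

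Tpsb2 (ENSMUSG00000033825, chr17:25366305-25369098, plus strand, GRCm38), which encodes a tryptase stored in mast cell granules, was the member listed most often, in 17 of 18 libraries. Its levels in the TLR4-WT control libraries were 2.08, 1.55 and 2.27 FPKM. In TLR4-K730R control they were 0.703, 0.881 and 0.423 FPKM, and in TLR4-K810R control 0.848, 0.427 and 0.431 FPKM. All 6 mutant control libraries therefore lay below the 3 TLR4-WT control libraries. The difference in mean log2(FPKM + 1) from TLR4-WT was -0.83 for TLR4-K730R and -0.92 for TLR4-K810R, each with an SE of 0.23 (n = 3 libraries a group). With LPS the levels were 1.45, 0.785 and 0.598 FPKM for TLR4-WT, 0.284, 0.504 and 0.985 FPKM for TLR4-K730R, and 0.532, 0.424 and 0 FPKM for TLR4-K810R. The LPS-treated TLR4-K810R libraries lay below TLR4-WT in this value, but from first exons alone they overlapped it (1.27, 0.66 and 0 FPKM for TLR4-WT, 0, 0.353 and 0 for TLR4-K810R), and TLR4-K730R overlapped it either way. Within TLR4-WT the LPS-treated libraries lay below the control libraries (log2 difference -0.62, SE 0.23), a separation in the lower direction that 39.5% of all tested genes showed and that became an overlap once the libraries were rescaled by median-of-ratios factors. Tpsb2 has a close paralog in Tpsab1, listed at 0 in all libraries, and how reads common to both were assigned is not given in the sources used here.

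Cpa3 (ENSMUSG00000001865, chr3:20215620-20242181, minus strand) encodes carboxypeptidase A3, a granule protease that is largely restricted to mast cells among mature leukocytes. It was listed in all 6 TLR4-WT libraries, at 0.542, 1.28 and 0.565 FPKM in control and 1.16, 1.22 and 0.458 FPKM with LPS. None of the 6 TLR4-K730R libraries listed it. In TLR4-K810R it was listed at 0.585 and 0.961 FPKM in 2 of 3 control libraries and at 0.863 FPKM in 1 of 3 LPS-treated libraries. In this value TLR4-K730R did not overlap TLR4-WT in either treatment, and TLR4-K810R overlapped it in both. The separation rested on first exons. From the last exon alone TLR4-WT held 0.498, 0.737 and 0 FPKM in control and 1.16, 0 and 0 FPKM with LPS, and TLR4-K730R overlapped it in both treatments. LPS-treated and control TLR4-WT libraries overlapped, with a log2 difference of 0.12 (SE 0.28).

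Cma1 (ENSMUSG00000022225, chr14:55941451-55944675, minus strand) encodes a chymase of connective-tissue mast cells. Its TLR4-WT levels were 1.10, 1.33 and 0.832 FPKM in control and 2.0, 1.51 and 0.327 FPKM with LPS. Among the control libraries, TLR4-K730R listed it in 1 of 3, at 0.766 FPKM, and TLR4-K810R listed 0.368, 0.37 and 0.832 FPKM, the last of these just below the lowest TLR4-WT value of the same rounding. The log2 difference from TLR4-WT control was -0.78 for TLR4-K730R and -0.46 for TLR4-K810R (SE 0.33 each). With LPS, TLR4-K730R held 0.233, 0 and 0.967 FPKM and TLR4-K810R held 0, 0.547 and 0 FPKM, and both overlapped TLR4-WT.

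Mcpt4 (ENSMUSG00000061068, chr14:56059629-56062313, minus strand), which encodes a chymase stored in granules of connective-tissue mast cells, was the least regular of the listed proteases. It was listed in 7 of 18 libraries at 0.256 to 0.929 FPKM. In control these were 2 TLR4-WT libraries (0.659 and 0.751 FPKM) and 2 TLR4-K730R libraries (0.256 and 0.929 FPKM). With LPS a single library of each genotype listed it, at 0.298 FPKM for TLR4-WT, 0.537 FPKM for TLR4-K730R and 0.700 FPKM for TLR4-K810R. All groups overlapped in each comparison of Mcpt4, so the 4 protease genes did not share a single order of the genotypes.

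Kit (ENSMUSG00000005672, chr5:75574916-75656722, plus strand) encodes the receptor for stem cell factor and was listed in 10 libraries, at 0.0179 to 0.869 FPKM. The TLR4-WT control libraries listed 0.869, 0.54 and 0.59 FPKM. Only 1 control library of each mutant listed it, at 0.0711 FPKM for TLR4-K730R and 0.419 FPKM for TLR4-K810R, both below the lowest TLR4-WT control library. With LPS, TLR4-WT held 0, 0.764 and 0.0838 FPKM, TLR4-K730R held 0, 0 and 0.0179 FPKM, and TLR4-K810R held 0, 0.0588 and 0.672 FPKM, with overlap throughout. The first exons behind these values were of different kinds. That of the coding transcript (chr5:75574916-75575118, GRCm38, plus strand) was listed in 4 libraries, the 3 TLR4-WT control libraries and 1 LPS-treated TLR4-WT library, and in no mutant library. An internal first exon at chr5:75610574-75610943, listed in 5 libraries, and another at chr5:75637115-75637408, listed in 3, start where GENCODE places transcripts that retain an intron. Every Kit value in the mutants came from these internal rows, and no library listed a last exon of Kit, so its separation in control rested on first exons alone.

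Fcer1a (ENSMUSG00000005339, chr1:173221284-173227214, minus strand) and Ms4a2 (ENSMUSG00000024680, chr19:11615523-11623719, minus strand) encode the IgE-binding α-chain and the signal-amplifying β-chain of FcεRI. Both were listed at 0 in all 18 libraries. No comparison between groups could be made, and the receptor that defines the IgE response of mast cells was represented in these libraries only by its γ-chain gene Fcer1g, which macrophages express as well.

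**Figure D2:**
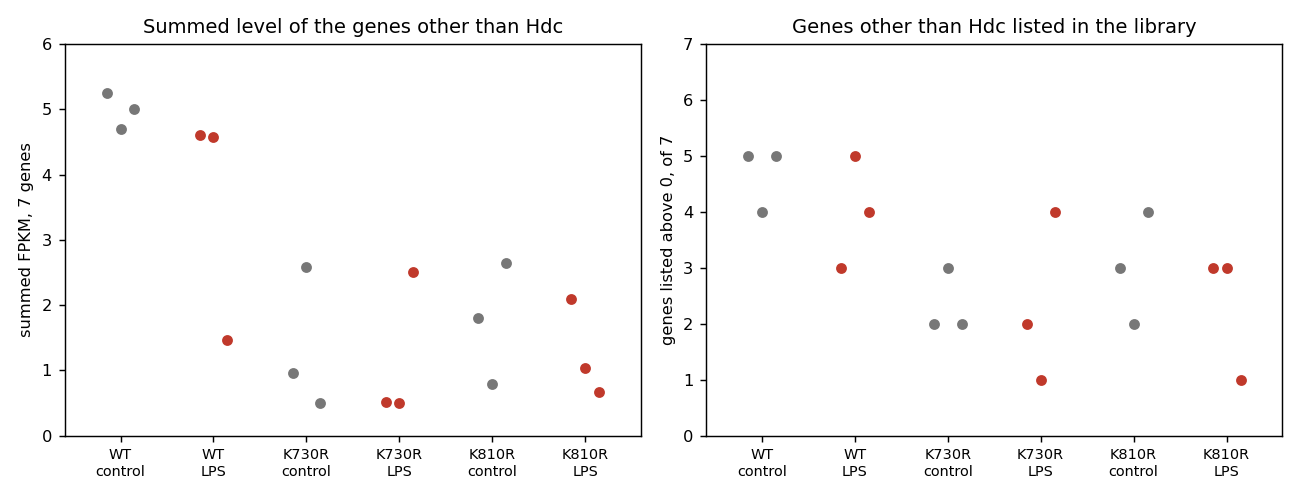
Left, summed FPKM of the 7 mast cell genes other than Hdc in each library; right, how many of the 7 were listed above 0. Points are single libraries by genotype and treatment, gray for control and red for LPS, and both vertical axes are linear and start at 0. The 3 TLR4-WT control libraries summed to 4.70 to 5.25 FPKM and the 12 mutant libraries to 0.494 to 2.64 FPKM. The LPS-treated TLR4-WT libraries summed to 1.47 to 4.61 FPKM and overlapped the mutants.

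Summed over the 7 genes other than Hdc, the TLR4-WT control libraries held 5.25, 4.70 and 5.01 FPKM. The control libraries of TLR4-K730R held 0.959, 2.58 and 0.494 FPKM and those of TLR4-K810R 1.80, 0.797 and 2.64 FPKM, all below TLR4-WT. With LPS the sums were 4.61, 4.58 and 1.47 FPKM for TLR4-WT, 0.517, 0.504 and 2.51 FPKM for TLR4-K730R, and 2.09, 1.03 and 0.672 FPKM for TLR4-K810R. Here TLR4-WT replicate 3 lay within the mutant range, and its mesothelium and fibroblast markers summed to 151 FPKM, against 108 and 45.4 FPKM in the other LPS-treated TLR4-WT libraries. A gene was listed in 26 of 42 possible cases for TLR4-WT, in 14 of 42 for TLR4-K730R and in 16 of 42 for TLR4-K810R. These cases include Fcer1a and Ms4a2, which no library listed, and count values as low as 0.0179 FPKM (Kit) as listed. The share of all genes listed in each genotype was not computed and depth is unknown, so nothing is read from these counts.

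Counted gene by gene in control libraries, Cpa3, Cma1, Tpsb2 and Kit lay wholly below TLR4-WT in TLR4-K730R, and Cma1, Tpsb2 and Kit did so in TLR4-K810R. Of all tested genes, 7.45% showed that separation for TLR4-K730R and 6.64% for TLR4-K810R. With LPS only Cpa3 lay wholly below TLR4-WT in TLR4-K730R (7.54% of all genes), and Tpsb2 and Hdc in TLR4-K810R (7.89%). Of these 10 separations 9 were kept from first exons alone and 6 from last exons alone, those lost being Tpsb2 with LPS in the former, and Cpa3 in both treatments and Kit in both mutants in the latter. Kit did not pass the filter and is not among the genes behind these shares. Cpa3, Cma1 and Tpsb2 reached 1 FPKM in TLR4-WT libraries only, so they passed through the group in which they were high, and nothing is read from their count against the shares. Since 1 TLR4-WT control group served both comparisons, the counts for the mutants are not independent of each other, and the members were not a random draw from the tested genes.

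Hdc (ENSMUSG00000027360, chr2:126593667-126619299, minus strand) encodes histidine decarboxylase, which makes histamine from histidine in a single step. Mast cells and basophils are its best-known source, and other myeloid cells, macrophages and neutrophils among them, are known to induce it. Hdc differed from the other members in both level and response to LPS. In control it was listed in 4 of 9 libraries, at 0.0897 FPKM in 1 of TLR4-WT, 0.411 FPKM in 1 of TLR4-K730R, and 0.0729 and 0.479 FPKM in 2 of TLR4-K810R. With LPS it was listed in all 9, at 19.5, 20.1 and 11.5 FPKM for TLR4-WT, 9.11, 6.60 and 20.3 FPKM for TLR4-K730R, and 7.92, 7.96 and 5.91 FPKM for TLR4-K810R.

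Every LPS-treated library lay above every control library, a separation in the higher direction seen for 15.5% of tested genes for TLR4-WT, 13.8% for TLR4-K730R and 14.6% for TLR4-K810R. The difference in mean log2(FPKM + 1) was 4.09 for TLR4-WT, 3.39 for TLR4-K730R and 2.82 for TLR4-K810R (SE 0.31 each), and 51, 92 and 143 of the 9707 tested genes had a larger difference in the respective genotype. Hdc reached 1 FPKM in LPS-treated libraries only, so it passed the filter through the group in which it was high, and nothing is read from its place among the tested genes or from these shares. Among LPS-treated libraries, TLR4-K810R lay wholly below TLR4-WT (log2 difference -1.10, SE 0.31). The separation was kept from first exons alone but was narrower, as given below with the exon rows. TLR4-K730R overlapped TLR4-WT, with its replicate 3, at 20.3 FPKM, above every TLR4-WT library (log2 difference -0.58, SE 0.31). Hdc made up 0 to 15.3% of the summed level of the 8 genes in control libraries and 79.1 to 94.6% in LPS-treated libraries, so the sum over all 8 mainly followed Hdc.

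The other members did not follow Hdc across treatment. Apart from the lower Tpsb2 in TLR4-WT, none of the 5 other listed genes separated LPS-treated from control libraries in any genotype. The summed level of 11 neutrophil markers was also higher with LPS, at 97.2 to 111 FPKM in TLR4-WT control and 305 to 388 with LPS, 95.6 to 102 and 293 to 395 for TLR4-K730R, and 98.9 to 114 and 326 to 351 for TLR4-K810R. All 11 markers were listed in at least 1 library, but the sum came mainly from S100a8 (22.1 to 239 FPKM over the 18 libraries), Mmp9 (10.2 to 103 FPKM) and Csf3r (26.1 to 67.4 FPKM). Mmp8 was listed in all 18 libraries at 4.97 to 20.6 FPKM and Camp in 11 at up to 6.38 FPKM. Of the other 6, Retnlg was listed in 7 libraries at up to 2.67 FPKM, Ltf in 7 at up to 1.0 FPKM, Ly6g in 5 libraries at up to 0.644 FPKM, Ngp in 2 at up to 0.121 FPKM, Cxcr2 in 1 at 0.132 FPKM and S100a9 in 11 at up to 2.23 FPKM. The part of these cells in the Hdc level was not tested.

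**Figure D3:**
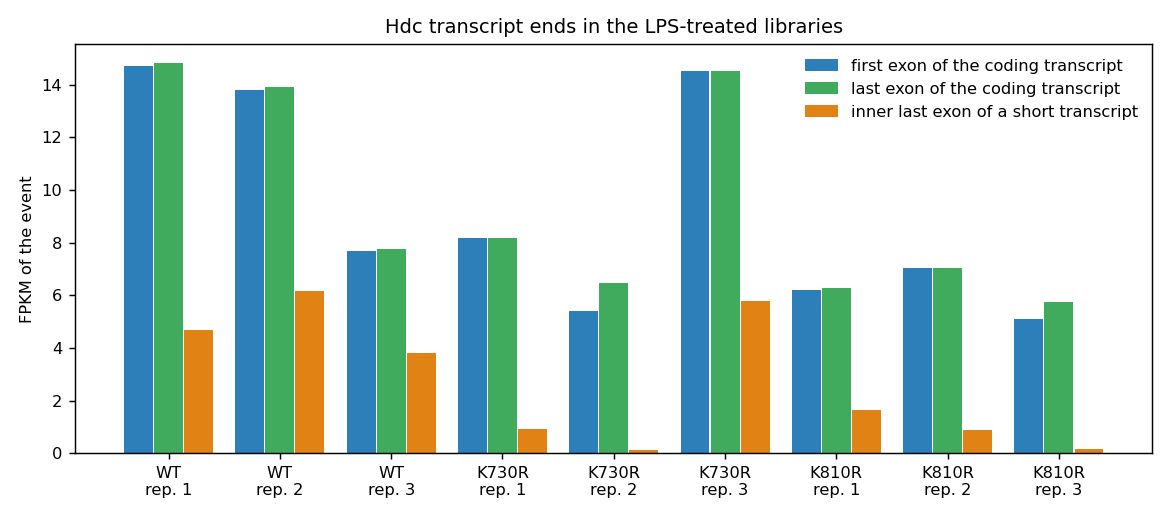
FPKM (vertical axis, linear from 0) of the 3 main Hdc end exons in the 9 LPS-treated libraries (horizontal axis). Bars give the first and the last exon of the coding transcript and the inner last exon of a short annotated transcript in each library. The first 2 were close in each library, at 5.11 to 14.8 FPKM, and the inner exon ranged from 0.129 to 6.16 FPKM.

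The rows behind the Hdc values were mostly those of the full coding transcript. Its first exon (chr2:126618518-126618678, GRCm38, minus strand) was listed in all 9 LPS-treated libraries at 5.11 to 14.7 FPKM and in 1 control library, and its last exon (chr2:126593667-126594686) in the same 9 at 5.76 to 14.8 FPKM and in 1 control library. A second last exon, chr2:126604315-126604375, inside the gene, was listed in 12 libraries, 9 of them LPS-treated. It ends where GENCODE places the end of a short processed transcript (chr2:126604315-126607641). In LPS-treated libraries this inner end took 24.1, 30.7 and 32.9% of the summed last-exon FPKM for TLR4-WT, 10.3, 1.95 and 28.5% for TLR4-K730R, and 20.8, 11.4 and 2.67% for TLR4-K810R. The TLR4-K810R libraries lay below all TLR4-WT libraries, and the TLR4-K730R libraries spanned both, again with replicate 3 apart. In 2 of the 3 control libraries that listed the inner end it was the only Hdc last exon listed. Because the gene value adds these ends, Hdc counted from its first exons alone averaged 12.1 FPKM in LPS-treated TLR4-WT in place of 17 FPKM.

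A further 21 genes known from mast cells were examined to see whether the scarcity extended beyond the members. In no library were 13 of them listed, among them the tryptase gene Tpsab1, the mucosal proteases Mcpt1 and Mcpt2, the itch and drug receptor Mrgprb2 and the transcription factor gene Gata1. Of the 8 others, 3 reached 1 FPKM in any library. Cd200r3, which encodes an activating receptor of mast cells and basophils, reached 2.0 FPKM in replicate 3 of the LPS-treated TLR4-K730R libraries, which was also highest in its group for Hdc, Tpsb2, Cma1 and Mcpt4. Cyp11a1, which encodes the enzyme that begins steroid synthesis, was listed in 5 libraries, all of TLR4-K810R, at up to 1.08 FPKM. Maob, which did not pass the filter, was at 0.51, 0.479 and 0 FPKM in TLR4-WT control and 0 in TLR4-K730R control. In TLR4-K810R control it was at 0.686, 0.585 and 0.865 FPKM, wholly above TLR4-WT, unlike the members. With LPS it was listed in 1 library, of TLR4-K730R, at 0.419 FPKM. For Tpsg1, Slc18a2, Hs6st2 and Il1rl1, each below 1 FPKM, the genotypes overlapped.

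Gata2, which encodes a transcription factor of mast cell and progenitor lineages, was the only gene of this list that passed the filter and was listed in all 18 libraries. Most libraries in which it reached 1 FPKM were LPS-treated, so it passed mainly through the side on which it was higher. In TLR4-K730R it was at 0.48, 0.107 and 0.023 FPKM in control and 1.67, 1.40 and 0.731 FPKM with LPS, without overlap. It rose there by the limma test across 9707 genes with Benjamini-Hochberg adjustment (log2 difference 0.91, SE 0.26, adjusted p = 0.00879), where 9.32% of tested genes were called higher with LPS. That call, at an adjusted p below 0.01, was lost on leaving out TLR4-K730R control replicate 2 (limma adjusted p = 0.03) or 3 (0.0373), or LPS-treated replicate 1 (0.0417) or 2 (0.0303), and over all alternatives the adjusted p ran from 0.00274 to 0.0417. In TLR4-WT the log2 difference was 0.27 (adjusted p = 0.41 by limma) and in TLR4-K810R 0.22 (adjusted p = 0.536). The difference between the LPS responses of the genotypes was not called for Gata2, nor was any genotype comparison.

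**Figure D4:**
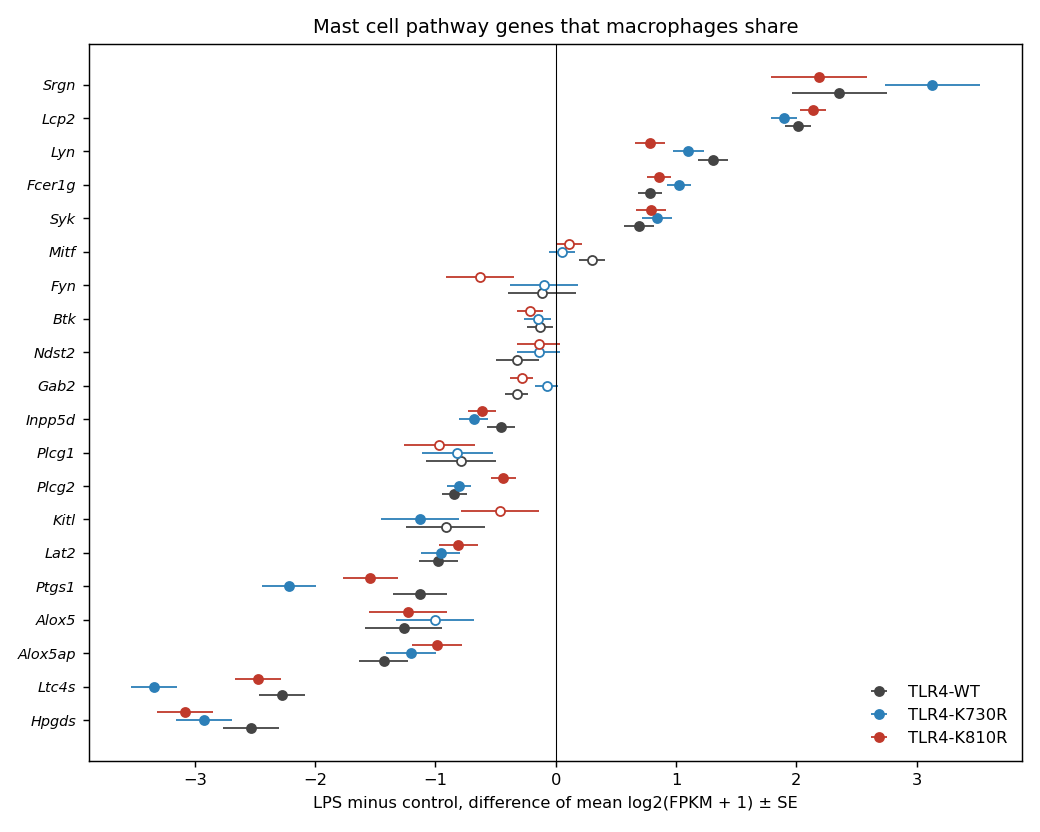
Difference between LPS-treated and control libraries in mean log2(FPKM + 1) with its SE (horizontal axis) for the 20 tested genes of mast cell pathways that macrophages share (vertical axis), in TLR4-WT (gray), TLR4-K730R (blue) and TLR4-K810R (red). Filled points passed an adjusted p of 0.01 by limma. Srgn and Lcp2 lay farthest to the right, at 1.90 to 3.13, and Ltc4s and Hpgds farthest to the left, at -2.28 to -3.34.

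Genes that mast cells use for signalling, storage and lipid mediators but share with macrophages were mostly at higher levels than the members, and most of them changed with LPS. Of 21 such genes 20 were tested, and the adaptor gene Lat was listed at 0 throughout. In each genotype 13 were called by limma at an adjusted p below 0.01, 5 higher and 8 lower with LPS. Among all tested genes, 10.4% were called higher and 23.9% lower for TLR4-WT, 9.32% and 26.5% for TLR4-K730R, and 9.08% and 19.7% for TLR4-K810R. The median log2 difference of the list was -0.39, -0.42 and -0.45 in TLR4-WT, TLR4-K730R and TLR4-K810R, and that of all tested genes -0.28, -0.36 and -0.26. Rescaling by median-of-ratios factors moved the latter to -0.02, -0.04 and -0.04 and changed the calls to 6 higher and 6 lower, 5 and 5, and 5 and 3. The same 12 genes were called in all genotypes, 5 higher and 7 lower, and 4 of these 7 (Alox5ap, Inpp5d, Lat2 and Plcg2) lost the call in at least 1 genotype under that scaling.

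The 5 genes that rose in all genotypes were Fcer1g, Lyn, Syk, Lcp2 and Srgn. Fcer1g, the γ-chain gene of FcεRI and of activating Fcγ receptors, went from 642 ± 25.7 to 1106.9 ± 47.6 FPKM in TLR4-WT (mean ± SD, n = 3), a log2 difference of 0.79 (SE 0.10, limma adjusted p = 9.68e-06). It rose by 1.02 for TLR4-K730R and 0.86 for TLR4-K810R on the log2 scale. Lyn and Syk, which encode the kinases that act on this chain and next in its path, rose by 1.31 and 0.70 for TLR4-WT, 1.10 and 0.84 for TLR4-K730R, and 0.79 and 0.79 for TLR4-K810R. Lcp2, the gene of the adaptor SLP-76, rose by 2.01, 1.90 and 2.14 in the same order. Srgn, which encodes serglycin, the proteoglycan core that packs granule proteases and histamine, rose by 2.36, 3.13 and 2.19. Its LPS-treated TLR4-WT libraries held 553, 562 and 199 FPKM, the low value again in replicate 3, which was also lowest of its group for Hdc, Tpsb2, Cpa3 and Cma1.

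The 7 genes that fell in all genotypes were Hpgds, Ltc4s, Ptgs1, Alox5ap, Inpp5d, Lat2 and Plcg2. Hpgds, the hematopoietic prostaglandin D synthase gene, went from 14.8 ± 1.39 to 1.74 ± 0.397 FPKM in TLR4-WT (mean ± SD, n = 3), a log2 difference of -2.54 (SE 0.23, limma adjusted p = 2.39e-07), and its differences were -2.92 for TLR4-K730R and -3.08 for TLR4-K810R. Ltc4s, the leukotriene C4 synthase gene, went from 12.8 ± 0.576 to 1.88 ± 0.621 FPKM in TLR4-WT, from 28.4 ± 6.36 to 1.87 ± 0.392 FPKM in TLR4-K730R and from 15.5 ± 2.08 to 1.99 ± 0.498 FPKM in TLR4-K810R. Ptgs1, which encodes cyclooxygenase 1, had log2 differences of -1.13, -2.22 and -1.54 in TLR4-WT, TLR4-K730R and TLR4-K810R, the first of which was not called when only the groups compared were fitted (limma adjusted p = 0.0137). Alox5ap, which encodes the 5-lipoxygenase activating protein, had differences of -1.43, -1.20 and -0.99, the last of which was not called with median-of-ratios scaling (-0.72, limma adjusted p = 0.0152). Alox5, the 5-lipoxygenase gene, was called in TLR4-WT (log2 difference -1.26, limma adjusted p = 0.00432) and TLR4-K810R (-1.23, adjusted p = 0.00607), and was at -1.0 (adjusted p = 0.017) in TLR4-K730R. Median-of-ratios scaling ended both Alox5 calls (-1.13, limma adjusted p = 0.011, and -1.07, adjusted p = 0.0175). Alox5 reached 1 FPKM in control libraries only, so it passed the filter through the groups in which it was high, and nothing is read from its calls. It is part of the counts of called genes given above for TLR4-WT and TLR4-K810R.

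The negative regulator gene Inpp5d (the phosphatase SHIP1), the adaptor gene Lat2 and the phospholipase gene Plcg2 were also called lower in all genotypes. For Inpp5d the log2 differences were -0.46, -0.68 and -0.61 in TLR4-WT, TLR4-K730R and TLR4-K810R, and with median-of-ratios scaling -0.14, -0.28 and -0.35, none of them called (limma adjusted p = 0.437, 0.0958 and 0.0516). For Lat2 they were -0.98, -0.96 and -0.81, and that scaling ended the calls in TLR4-K730R (-0.56, limma adjusted p = 0.0248) and TLR4-K810R (-0.54, adjusted p = 0.0322). For Plcg2 they were -0.84, -0.80 and -0.44, and the call in TLR4-K810R was lost (-0.17, limma adjusted p = 0.179). Kitl, which encodes stem cell factor, the ligand of KIT, was low, at a mean of 1.68 to 2.04 FPKM in the control groups. It fell in TLR4-K730R (log2 difference -1.13, limma adjusted p = 0.00954) and was at -0.92 (adjusted p = 0.0308) in TLR4-WT and -0.47 (adjusted p = 0.275) in TLR4-K810R. The Kitl call was lost on leaving out any of its TLR4-K730R libraries other than LPS-treated replicate 3 (limma adjusted p = 0.0173 to 0.0501), and over all alternatives its adjusted p ran from 0.00176 to 0.0501. Single libraries also decided the calls of Alox5 in TLR4-WT (control replicates 1 and 2, LPS-treated replicates 1 and 3, limma adjusted p up to 0.0222 without them) and TLR4-K810R (control replicates 2 and 3, LPS-treated replicates 1 and 3, up to 0.0303), of Inpp5d in TLR4-WT (control replicates 1 and 3, LPS-treated replicates 2 and 3, up to 0.0253) and of Plcg2 in TLR4-K810R (control replicate 2, LPS-treated replicates 2 and 3, up to 0.0163). Btk, Fyn, Gab2, Mitf, Ndst2 and Plcg1 were not called in any genotype. Mitf, the gene of a transcription factor that mast cells need, stood at 22.5 ± 2.34 FPKM in TLR4-WT control and 27.9 ± 1.62 FPKM with LPS (log2 difference 0.30, adjusted p = 0.0303).

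No gene of this list was called between genotypes by limma. In control libraries 0.268% of all tested genes were called for TLR4-K730R and 1.58% for TLR4-K810R against TLR4-WT, and with LPS 0% and 0.134%. At an unadjusted p under 0.05 the list held 6 and 2 of its 20 genes in control, against 7.7% and 14.1% of all tested genes, and 0 and 4 genes with LPS, against 7.69% and 21.8% of all. The LPS response itself was called different from that of TLR4-WT for 0.0412% of tested genes when the mutant was TLR4-K730R and for 0.124% when it was TLR4-K810R, none of them on the list, which held 2 genes at an unadjusted p under 0.05 in each, against 7.02% and 13.2% of all tested genes. An LPS call in some genotypes and not in others, as for Alox5, Kitl and Gata2, is therefore not shown to differ between them.

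The tested genes were ranked by how closely their levels followed the mean log2(FPKM + 1) of the 6 listed members. Of the 21 other mast cell genes only Gata2 was tested and could be ranked. No gene of that list or of the shared pathway list was among the 12 closest, over libraries or within groups. Over the 18 libraries the 12 closest had Pearson correlations of 0.86 to 0.913, a description in which the points share the treatment that sets Hdc. They included Ms4a6b, Themis2, Mid1, Treml2, Ly6d, Ifi207, Isoc1, Ifi27l2a, Arel1, Dek and B2m. Ms4a6b lay at 2.82 to 9.77 FPKM in control and 9.02 to 34.5 FPKM with LPS, and B2m, the light chain gene of MHC class I, at 1537 to 2800.2 and 2763.5 to 4629.5 FPKM. After the group means had been subtracted, the 12 closest were Oasl1 (r = 0.917), Gpr35, Stx2, Ly86, Gnb4, Itga9, Vcan, Slc28a2, Tmem131, Ggcx, Sema4c and Etv6, with none in common with the first 12.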

How the data were processed

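RNA was isolated with the RNeasy kit and sequenced on an Illumina platform. The authors deposited 1 table per library that lists transcript events (20 kinds, 80071 to 90401 rows) with FPKM values and no read counts. The program is not given in the sources used here. The submitters' processing notes list the genome build hg18, a human build, but the coordinates match mouse GRCm38 (GENCODE M21), which was used.

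Per library, first-exon and last-exon rows were summed where they lay inside their named Ensembl gene and on its strand, and the larger sum was the gene value. This left out 6.24% of the FPKM of such rows. The 9707 of 13598 genes that reached 1 FPKM in 3 or more libraries were tested as log2(FPKM + 1), which understates changes of low genes, by limma 3.58.1 in R 4.3.3 with an intensity trend, all 6 groups in 1 fit, Benjamini-Hochberg adjustment and calls at adjusted p below 0.01. The fit was tested on simulated data. The SE given for members comes from this fit.

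The members and lists were chosen with earlier results of these data known. Genes named were the members, every list gene called in a comparison or with a group mean of at least 1 FPKM where a list was described by range, and the 12 most similar genes over libraries and within groups, 1 of which is not reported here; the other genes named were chosen after their values were seen. Alternatives were a pseudocount of 0.1, no filter, median-of-ratios scaling, first-exon or last-exon sums alone, all events of a gene number, no trend, library weights, a threshold of 0.05, only the groups compared, a replicate block, and leaving out each library.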

Additional observations from a re-analysis of the deposited data

How the results depend on the processing

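No called gene changed direction under any alternative run. Of 600 alternative values for 40 gene calls, 554 stayed past the threshold and 46 did not. In TLR4-WT control the mean sum of the 8 genes (5.01 FPKM) was 3.71 from last exons alone and 4.51 with median-of-ratios scaling, and without Hdc (4.99, an alternative chosen after the values were seen) 3.68 and 4.49. Without Hdc, LPS-treated TLR4-K810R (1.27) was 0.501 from last exons alone. Of the 10 separations of a member between genotypes, scaling kept 10, first exons alone 9 and last exons alone 6. Gata2, the 1 call of the other mast cell genes in TLR4-K730R with LPS, became 0 with no filter, with only the groups compared and with a replicate block, and in TLR4-K810R with no filter 1 gene was called in place of 0. Fitting only the groups compared also ended the LPS calls of Ptgs1 (limma adjusted p = 0.0137) and Inpp5d (0.0226) in TLR4-WT, Inpp5d (0.0117) and Alox5 (0.0177) in TLR4-K810R, and Kitl (0.016) in TLR4-K730R. Kitl was also lost with scaling (0.0333), no filter (0.0149) and a pseudocount of 0.1 (0.0142), and Alox5 in TLR4-WT with that pseudocount (0.0101). The shared pathway genes called in TLR4-K810R with LPS went from 13 to 8 with median-of-ratios scaling. Their 0 calls between genotypes became 1 for TLR4-K730R control (Ltc4s) at a threshold of 0.05 and with library weights, 1 for TLR4-K810R control (Ptgs1) at 0.05, and 1 for TLR4-K810R with LPS (Plcg2) with library weights. The cause was not tested.

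Leaving out 1 library moved the sum of the 8 genes within 4.9 to 5.13 (TLR4-WT control), 18.6 to 24.4 (TLR4-WT LPS), 0.726 to 1.97 (TLR4-K730R control), 8.37 to 16.2 (TLR4-K730R LPS, lowest without replicate 3), 1.34 to 2.46 (TLR4-K810R control) and 7.79 to 9.5 (TLR4-K810R LPS), and without Hdc within 4.85 to 5.13, 3.02 to 4.6, 0.726 to 1.77, 0.51 to 1.51, 1.3 to 2.22 and 0.851 to 1.56. Calls of other mast cell genes ranged from 0 to 1 in TLR4-K730R with LPS and stayed at 0 elsewhere. Calls of shared pathway genes with LPS ranged from 11 to 12, 12 to 13 and 11 to 13. Between genotypes 1 was called for TLR4-K730R control without its replicate 3 and 1 for TLR4-K810R with LPS without TLR4-WT replicate 3, and 0 otherwise. Replicate numbers did not pair the libraries. Deviations of 45 same-numbered pairs correlated at -0.32 to 0.0993, 0 of them above 0.1, and 8 of 90 differently numbered pairs lay above it. The replicate block ended the Gata2 and Kitl calls in TLR4-K730R (adjusted p = 0.0134 and 0.0107 by limma) and no other named call. Without counts the files set no depth, so low values carry an unknown counting error.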
